A study of Mus musculus with 8 samples.

Results

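The expression of 10 genes was followed in chronic stroke infarcts of aged mice, namely those that organize lymphoid tissue and keep B lymphocytes alive. The members were taken from a fixed list by symbol: *Ccl21a*, *Ccl19*, *Cxcl13*, *Cxcl12*, *Cxcr5*, *Ccr7*, *Lta*, *Ltb*, *Tnfsf13b* and *Tnfsf13*. All 10 were found among the 46078 gene identifiers of the count tables. The infarcts came from 8 wild type C57BL/6J mice aged 18 months, all of them male. Every animal had been given a DH stroke, an occlusion of the distal middle cerebral artery followed by hypoxia. From 1 week after stroke, 4 animals received subcutaneous 2-hydroxypropyl-β-cyclodextrin (HPβCD) at 4 g/kg, and the other 4 received phosphate-buffered saline (vehicle). Injections were given 3 times per week for 6 weeks, and infarcts were collected at 7 weeks after stroke. HPβCD is a ring-shaped sugar that holds lipophilic molecules such as cholesterol in its cavity. Infarcts were dissected manually after visual identification, so the amount of neighbouring brain in a sample was not controlled.

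Lymphoid tissue chemokines are secreted proteins that guide lymphocytes and dendritic cells to their places in lymph nodes and spleen. CCL21 and CCL19 bind the receptor CCR7 and draw T lymphocytes and dendritic cells, CXCL13 binds CXCR5 and draws B lymphocytes, and CXCL12 binds CXCR4 on many cells, including plasma cells. The lymphotoxins LTα and LTβ are made by lymphocytes and act on the lymphotoxin β receptor of stromal cells, where the alternative NF-κB pathway in turn drives these chemokines. BAFF (*Tnfsf13b*) and APRIL (*Tnfsf13*) are survival factors of B lymphocytes and plasma cells. The same genes can be expressed outside lymphoid organs in chronically inflamed tissue, where groups of lymphocytes form.

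*Ccl21a* has near-identical copies in the mouse genome, and their coding sequences show how little separates it from one of them, *Ccl21b*. Both lie on chromosome 4 (GRCm38, GENCODE M21), *Ccl21a* (ENSMUSG00000094686) at 42772860 to 42773993 on the minus strand and *Ccl21b* (ENSMUSG00000095675) at 42255767 to 42256432 on the plus strand. Their coding sequences of 402 bases differ at 2 positions, T84A and C194T, written with the *Ccl21a* base first and counted from the start codon, and are 99.5% identical. Coding positions 54 to 224 are printed 5′ to 3′, with the differing bases in capitals.
Ccl21a: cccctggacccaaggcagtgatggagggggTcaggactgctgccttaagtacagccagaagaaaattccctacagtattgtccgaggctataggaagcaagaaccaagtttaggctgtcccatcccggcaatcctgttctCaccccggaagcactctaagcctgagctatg
Ccl21b: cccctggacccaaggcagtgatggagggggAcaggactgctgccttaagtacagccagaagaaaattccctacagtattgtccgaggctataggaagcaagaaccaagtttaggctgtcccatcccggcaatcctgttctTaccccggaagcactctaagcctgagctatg
Of the 796 windows of 75 bases, the read length, in the *Ccl21a* transcript, 488 (61.3%) also occurred in the transcript of another gene. A read from such a window can align to several places and is then left out by the counting. A further 3 annotated copies, *Gm13304*, *Gm21541* and *Gm10591*, had 0 counts in all 8 libraries, and *Ccl21b* had 1 count, in vehicle animal 3. Between 97.0% and 100% of the windows of these 4 copies were shared, so a count of 0 there says little about their expression. The values of *Ccl21a* are therefore those of its distinct part and understate the level. Similar limits held for *Ccl19*, with 45.3% of its windows shared with *Gm2564* and *Ccl19* pseudogenes, and for *Tnfsf13*, with 55.7% shared with the read-through gene *Tnfsfm13*. *Cxcr5* shared 1.1% with *Bcl9l*, and the other 6 members shared none.

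The libraries held 16.6 M to 19.4 M gene counts, except for vehicle animal 2 with 32.9 M. CPM are gene counts per 1000000 counts of the library total, scaled by its TMM factor. Neuron markers, summed over 6 genes, reached 5554 CPM in the infarct of vehicle animal 3 and 831 CPM in that of vehicle animal 1, and lay at 2.14 to 68.4 CPM in the other 6 libraries. Astrocyte markers were at 2298 to 8902 CPM in vehicle infarcts and 674 to 2410 CPM in HPβCD-treated infarcts. Vehicle animals 1 and 3 therefore stand apart, and the 9 members that passed the filter on low counts are also given without them. Over all 14736 genes tested with edgeR, 1.17% rose and 0.774% fell at a Benjamini-Hochberg adjusted p under 0.05.

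*Ccl21a* and *Cxcl12* rose with HPβCD, the only 2 of the 9 members tested that passed the edgeR test. No member passed it downward, although 4 had lower means with an unadjusted p under 0.05: *Cxcl13* (0.00361), *Ltb* (0.00677), *Cxcr5* (0.00753) and *Ccr7* (0.0186). In all, 6 of the 9 (66.7%) had an unadjusted p under 0.05, as did 27.8% of all tested genes. With DESeq2, the test used in the study, *Ccl21a* and *Cxcl12* rose and *Cxcl13*, *Cxcr5* and *Ltb* fell, where 6.1% of all genes with an adjusted p rose and 11.4% fell. The groups did not overlap for 4 members, of which *Ccl21a* and *Cxcl12* were higher and *Cxcr5* and *Ltb* lower. Over all tested genes, 8.77% had non-overlapping groups with HPβCD higher and 8.03% with HPβCD lower. The median log2 fold change was 0.15 over the 9 members tested and -0.05 over all genes.

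*Ccl21a*, the ligand that lymphatic endothelium and lymph node stroma present to CCR7-bearing cells, was the member with the largest fold change. It measured 3.11, 3.79, 1.76 and 2.21 CPM in vehicle animals 1 to 4. In HPβCD-treated animals 1 to 4 it measured 23.6, 12.1, 16.8 and 7.11 CPM. Every treated infarct lay above every vehicle infarct, and the treated animals themselves spread over a wide range. The means were 2.72 ± 0.911 CPM and 14.9 ± 7.01 CPM (SD, n = 4 each), a 5.45-fold rise (log2 fold change 2.45 ± 0.40 SE, adjusted p = 0.0444 with edgeR). These values rest on 29 to 132 counts in vehicle and 128 to 410 counts in treated libraries. In bulk tissue, a change in the number of cells that express a gene and a change in RNA per cell cannot be told apart. Adding the counts of the 4 copies gave a log2 fold change of 2.44 (edgeR adjusted p = 0.0429). Since the copies held 1 count in all, this sum could hardly differ. It does not test the effect of reads left out for shared sequence. The edgeR call was lost, with the direction kept, without vehicle animal 1 (adjusted p = 0.149) or 4 (0.0647) or without HPβCD animal 1 (0.155), 2 (0.172) or 3 (0.0899). Without vehicle animals 1 and 3 the log2 fold change was 2.31, with an edgeR adjusted p of 0.0717 and the DESeq2 call kept.

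*Cxcl12* (ENSMUSG00000061353, chromosome 6, 117168535 to 117181367, plus strand) encodes the ligand of CXCR4, made by fibroblasts, mural cells and endothelium. Vehicle animals 1 to 4 had 642, 1117, 659 and 1035 CPM. HPβCD-treated animals 1 to 4 had 1953, 2052, 1570 and 1987 CPM. The lowest treated infarct thus lay above the highest vehicle infarct. The means were 863 ± 248 and 1890.3 ± 218 CPM (SD, n = 4 each), a rise with a log2 fold change of 1.13 (SE 0.23) and an edgeR adjusted p of 0.0499. This edgeR call was lost without vehicle animal 1 (adjusted p = 0.155) or 4 (0.066), without HPβCD animal 1 (0.156), 2 (0.177), 3 (0.0899) or 4 (0.0682), and without vehicle animals 1 and 3 (log2 fold change 0.83, adjusted p = 0.0527). DESeq2 called it with all animals (adjusted p = 0.00034) and without vehicle animals 1 and 3. The summed fibroblast markers were also higher in every treated than in every vehicle infarct.

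*Cxcl13* (ENSMUSG00000023078, chromosome 5, 95956951 to 95961068, plus strand), the chemokine of B cell follicles, had the opposite course. Vehicle animals 1 to 4 had 169.8, 284, 83.8 and 240.5 CPM. HPβCD-treated animals 1 to 4 had 49.1, 46.6, 81.6 and 90.2 CPM. All treated infarcts were below 3 of the 4 vehicle infarcts, and vehicle animal 3, the infarct with the most neuron markers, lay within the treated range. The mean was 194 ± 87.4 CPM in vehicle and 66.9 ± 22.3 CPM in treated infarcts (SD, n = 4 each). The log2 fold change of -1.54 (SE 0.39) did not pass with edgeR (adjusted p = 0.0677) and passed with DESeq2 (adjusted p = 0.00312). Without vehicle animal 3 it passed with edgeR at -1.79 (adjusted p = 0.0242), and without vehicle animals 1 and 3 at -1.95 (adjusted p = 0.0314).

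*Ccl19* (ENSMUSG00000071005, chromosome 4, 42754525 to 42756577, minus strand), the second ligand of CCR7, had few counts. It measured 0.66 to 1.3 CPM in vehicle and 0.555 to 2.31 CPM in treated infarcts, on 10 to 43 counts per library. The groups overlapped. Its log2 fold change was 0.56 with an SE of 0.45 (edgeR adjusted p = 0.457), and 1.01 without vehicle animals 1 and 3 (edgeR adjusted p = 0.331). Whether the changes of the 2 CCR7 ligands differ was not tested.

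**Figure D1:**
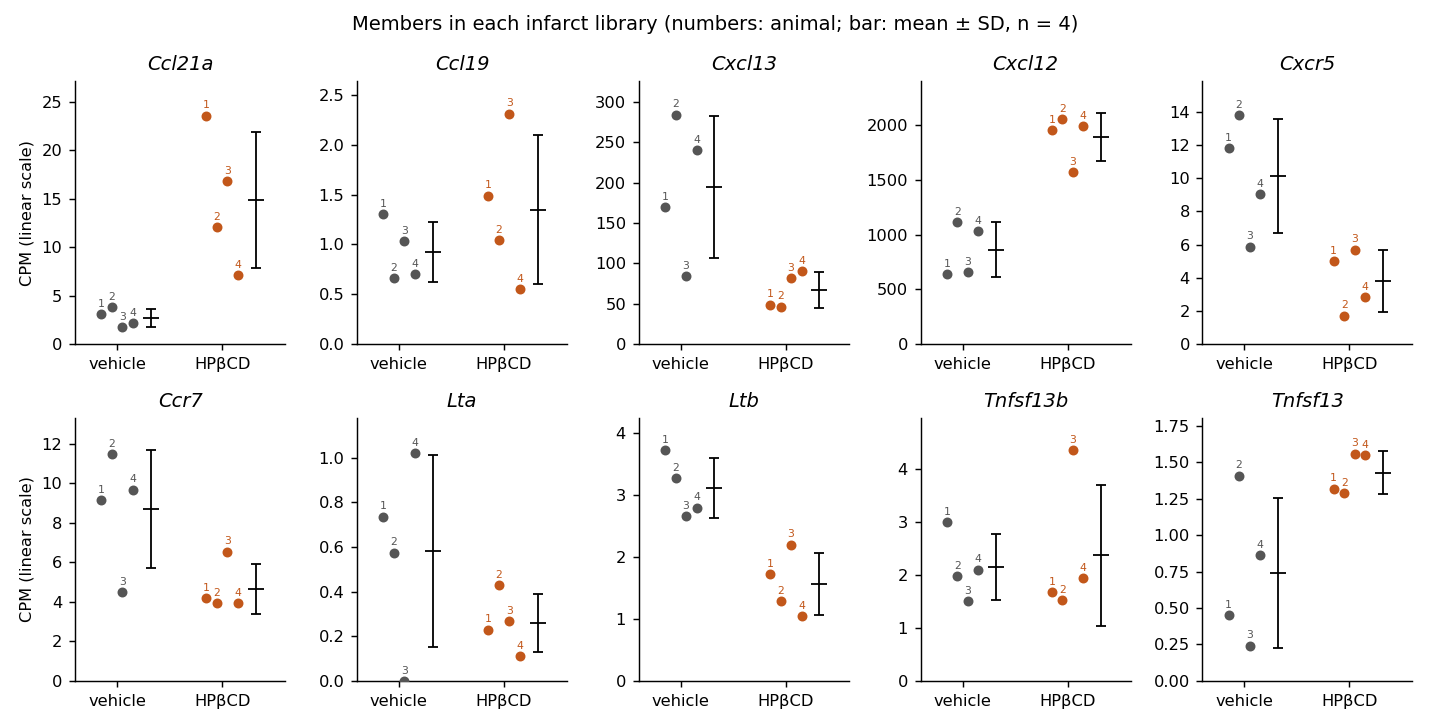
CPM of the 10 members in each library, on linear axes that start at 0, with vehicle in grey and HPβCD in orange; numbers mark the animal and bars the mean ± SD of 4 animals. The treated infarcts lie above all vehicle infarcts for Ccl21a and Cxcl12 and below all of them for Cxcr5 and Ltb, while Cxcl13 of vehicle animal 3 (83.8 CPM) falls among the treated values.

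The receptors CXCR5 and CCR7, which lymphocytes use to read these chemokines, were both lower on average in treated infarcts, and neither passed the edgeR test. *Cxcr5* (ENSMUSG00000047880, chromosome 9, 44511787 to 44561877, minus strand) marks mature B lymphocytes and follicular helper T cells. It stood at 11.8, 13.8, 5.87 and 9.04 CPM in vehicle animals 1 to 4. It stood at 5.0, 1.72, 5.69 and 2.83 CPM in HPβCD-treated animals 1 to 4. The groups did not overlap, but the gap between vehicle animal 3 and HPβCD animal 3 was small. Between the groups, the log2 fold change was -1.41 (SE 0.41), with an adjusted p of 0.0824 by edgeR and 0.0118 by DESeq2. Its value without vehicle animals 1 and 3 was -1.57 (edgeR adjusted p = 0.106).

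*Ccr7* (ENSMUSG00000037944, chromosome 11, 99144196 to 99155077, minus strand) is carried by naive and central memory T lymphocytes, B lymphocytes and migrating dendritic cells. Its level was 9.16, 11.5, 4.48 and 9.68 CPM in vehicle animals 1 to 4. It measured 4.19, 3.92, 6.55 and 3.94 CPM in HPβCD-treated animals 1 to 4. In 3 treated infarcts it was nearly equal and HPβCD animal 3 stood above them, while vehicle animal 3 lay among the treated values. The log2 fold change of -0.90 (SE 0.31) passed neither test (adjusted p = 0.110 with edgeR and 0.0624 with DESeq2). Without vehicle animal 3 it was -1.12 and passed with edgeR (adjusted p = 0.0369), and without vehicle animals 1 and 3 it was -1.17 with edgeR (adjusted p = 0.0613) and -1.18 with DESeq2, which then called it (adjusted p = 0.00261). With all animals, limma-voom also called it (adjusted p = 0.00596).

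Both lymphotoxin genes had low counts and lower means with HPβCD. *Ltb* (ENSMUSG00000024399, chromosome 17, 35194439 to 35196320, plus strand) encodes the membrane-anchoring chain of the lymphotoxin heterotrimer. It was at 3.73, 3.27, 2.66 and 2.80 CPM in vehicle animals 1 to 4. It was at 1.72, 1.29, 2.20 and 1.05 CPM in HPβCD-treated animals 1 to 4. No treated infarct reached the lowest vehicle infarct. In *Ltb*, the log2 fold change was -0.99 (SE 0.28), with an adjusted p of 0.0802 by edgeR and 0.0248 by DESeq2. Without vehicle animals 1 and 3 it was -0.94 with edgeR (adjusted p = 0.175) and -0.95 with DESeq2, whose call was lost (adjusted p = 0.164). *Lta* (ENSMUSG00000024402, chromosome 17, 35203165 to 35205351, minus strand), the chain shared by soluble and membrane lymphotoxin, was below the edgeR filter. It was at 0.735, 0.574, 0 and 1.02 CPM in vehicle and 0.230, 0.429, 0.268 and 0.111 CPM in treated infarcts. These are at most 20 counts in a library, and the DESeq2 log2 fold change of -1.16 did not pass (adjusted p = 0.454).

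The survival ligands of B lymphocytes and plasma cells passed no test in either direction. *Tnfsf13b* (ENSMUSG00000031497, chromosome 8, 10006467 to 10039072, plus strand), encoding BAFF, was at 3.0, 1.98, 1.51 and 2.10 CPM in vehicle animals 1 to 4. It was at 1.67, 1.53, 4.35 and 1.94 CPM in HPβCD-treated animals 1 to 4. HPβCD animal 3 was the highest of all 8, and the other 3 treated infarcts lay within the vehicle range. Its log2 fold change of 0.15 (SE 0.39, adjusted p = 0.843 with edgeR) turned to -0.32 without that animal (edgeR adjusted p = 0.562), and was 0.24 without vehicle animals 1 and 3 (edgeR adjusted p = 0.785). *Tnfsf13* (ENSMUSG00000089669, chromosome 11, 69682846 to 69685784, minus strand), encoding APRIL, was at 0.453, 1.41, 0.242 and 0.861 CPM in vehicle animals 1 to 4. It was at 1.32, 1.29, 1.56 and 1.55 CPM in HPβCD-treated animals 1 to 4. The treated infarcts were close together, whereas vehicle animals 1 and 3 had only 8 and 4 counts. With an SE of 0.47, its log2 fold change was 0.89 (adjusted p = 0.25 with edgeR), and 0.33 without vehicle animals 1 and 3 (edgeR adjusted p = 0.626). *Tnfsfm13*, which shares 60.0% of the exon bases of *Tnfsf13*, had 1 to 10 counts per library.

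The 3 receptors for BAFF and APRIL were lower in every treated infarct than in every vehicle infarct, and 2 of them fell by edgeR. Over all tested genes, 8.03% were lower without overlap and 0.774% fell by edgeR. The 8 B lymphocyte markers described below had a median log2 fold change of -1.88. Whether the 3 receptors changed differently from these markers was not tested. *Tnfrsf13c*, the BAFF receptor of B lymphocytes, was at 24.5, 25.9, 10.8 and 17.6 CPM in vehicle animals 1 to 4. It was at 4.08, 1.72, 5.26 and 4.83 CPM in HPβCD-treated animals 1 to 4 (log2 fold change -2.31 ± 0.40 SE, adjusted p = 0.0472 with edgeR). *Tnfrsf13b*, which encodes TACI and binds both ligands, was at 27.9, 37.7, 18.8 and 27.6 CPM in vehicle animals 1 to 4. It was at 12.7, 8.88, 13.6 and 13 CPM in HPβCD-treated animals 1 to 4 (log2 fold change -1.22 ± 0.23 SE, adjusted p = 0.0483 with edgeR). Both also fell without vehicle animals 1 and 3 (edgeR adjusted p = 0.0336 and 0.0314). *Tnfrsf17*, the plasma cell receptor BCMA, was at 1.08 to 4.06 CPM in vehicle and 0.222 to 0.919 CPM in treated infarcts (log2 fold change -2.05, SE 0.55), with an adjusted p of 0.0722 by edgeR and 0.0065 by DESeq2. The DESeq2 call of *Tnfrsf17* was lost without vehicle animals 1 and 3 (log2 fold change -1.56, adjusted p = 0.158). The calls of *Tnfrsf13c* and *Tnfrsf13b* were lost in edgeR without vehicle animal 1 (adjusted p = 0.151 and 0.155) or 4 (0.0635 and 0.066). They were also lost in edgeR without HPβCD animal 1 (0.156 for both), 2 (0.154 and 0.175) or 3 (0.0899 for both), and that of *Tnfrsf13b* without HPβCD animal 4 (0.0585). Scaling by library totals alone also ended both calls (edgeR adjusted p = 0.0539 and 0.0551), and leaving out the robust option that of *Tnfrsf13b* (0.0511).

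The genes of these pathways were set beside all tested genes. Of 58 pathway genes in the tables, 47 were tested, 21 with a positive and 26 with a negative log2 fold change and a median of -0.17. The *Tnfrsf13b* and *Tnfrsf13c* calls were the only ones by edgeR in these lists, both downward, while DESeq2 called 4 genes higher and 6 lower. Over all genes, edgeR called 1.17% higher and 0.774% lower, and DESeq2 6.1% higher and 11.4% lower. At an unadjusted edgeR p under 0.05 there were 14 of the 47 (29.8%), against 27.8% of all tested genes. Among the partners of the chemokines (7 tested), *Cxcr4*, the receptor of CXCL12, had a log2 fold change of 0.28 (SE 0.23), and its scavenger *Ackr3* of 0.42 (SE 0.33). *Dpp4*, a protease that trims CXCL12, stood at -0.17 (SE 0.22). *Ackr4*, the scavenger of CCL21 and CCL19, was at 0.376 to 0.746 CPM in vehicle and 0.537 to 2.30 CPM in treated infarcts (log2 fold change 1.07, SE 0.49). The edgeR adjusted p of these 4 partners ranged upward from 0.192. *Ccr6*, chosen after its values were seen, was the single partner called by DESeq2 (log2 fold change -1.88, adjusted p = 0.0274).

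The 3 receptors named on the lymphotoxin side had higher means in treated infarcts. *Ltbr*, the lymphotoxin β receptor, was at 49.9, 46.2, 39.6 and 52.0 CPM in vehicle animals 1 to 4. It was at 83.5, 78.8, 67.2 and 53.8 CPM in HPβCD-treated animals 1 to 4. The groups did not overlap, and the log2 fold change of 0.59 (SE 0.17) had an adjusted p of 0.08 with edgeR and 0.0203 with DESeq2. Without vehicle animals 1 and 3 it was 0.54 (edgeR adjusted p = 0.154). The TNF receptors *Tnfrsf1a* (log2 fold change 0.61 ± 0.19, edgeR adjusted p = 0.0923) and *Tnfrsf1b* (0.55 ± 0.27, edgeR adjusted p = 0.226, both ± SE), which also bind soluble LTα, did not pass either. Of the 8 genes of this list, 3 (37.5%, against 27.8% of all tested genes) had an unadjusted edgeR p under 0.05, namely *Ltbr*, *Tnfrsf1a* and, in the other direction, *Tnfsf11*, the RANK ligand gene (log2 fold change -1.22, SE 0.42), which is named for this count after its values were seen. By DESeq2, *Ltbr* and *Tnfrsf1a* (adjusted p = 0.0396) were the 2 genes called among the 8 of this list.

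Signalling and positioning genes showed no edgeR call, where 1.17% of all tested genes were called higher and 0.774% lower. In the alternative NF-κB pathway, 3 of 8 genes were higher and 5 lower, with a median log2 fold change of -0.14, and neither edgeR nor DESeq2 called any. At an unadjusted p under 0.05, where 27.8% of all tested genes lay, edgeR gave 0 of the 8 as well. The best expressed of them were the kinase gene *Chuk* (0.05, SE 0.22) and the ubiquitin ligase genes *Birc2* (-0.25, SE 0.20) and *Birc3* (-0.35, SE 0.37), all as log2 fold changes. In the oxysterol system that positions B lymphocytes, the receptor gene *Gpr183* had a log2 fold change of -0.38 (SE 0.32) and the ligand-making *Ch25h* of -0.49 (SE 0.41). *Hsd3b7*, which removes the ligand, was at 9.93 to 14.8 CPM in vehicle and 16.7 to 20.3 CPM in treated infarcts (log2 fold change 0.61, SE 0.16), with an adjusted p of 0.0728 by edgeR and 0.0141 by DESeq2. Without vehicle animals 1 and 3 it was 0.46 (edgeR adjusted p = 0.167).

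Among 9 tested genes of lymphoid stroma and lymphocyte entry, the adhesion molecule *Icam1* was at 66.6 to 134 CPM in vehicle and 153 to 245 CPM in treated infarcts. Its log2 fold change was 0.89 (SE 0.23), with an adjusted p of 0.0706 by edgeR and 0.00988 by DESeq2, and 0.64 without vehicle animals 1 and 3 (edgeR adjusted p = 0.123). *Vcam1* (0.41, SE 0.19) and *Pdpn* (0.44, SE 0.23), also adhesion and stromal genes, had smaller log2 fold changes and overlapping groups. *Cr2*, a complement receptor of B lymphocytes and follicular dendritic cells that was named after its values were seen, was called lower by DESeq2 (log2 fold change -2.38, adjusted p = 0.00028). Of 12 germinal centre and T cell help genes, 8 were tested, with 2 (25.0%) at an unadjusted edgeR p under 0.05, against 27.8% of all tested genes. Of these 8, 2 were higher and 6 lower, and neither tool called any. *S1pr2* (0.61, SE 0.25, unadjusted p = 0.0398), *Bcl6* (0.07, SE 0.19) and *Icosl* (-0.54, SE 0.28) were the best expressed of them, as edgeR log2 fold changes.

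**Figure D2:**
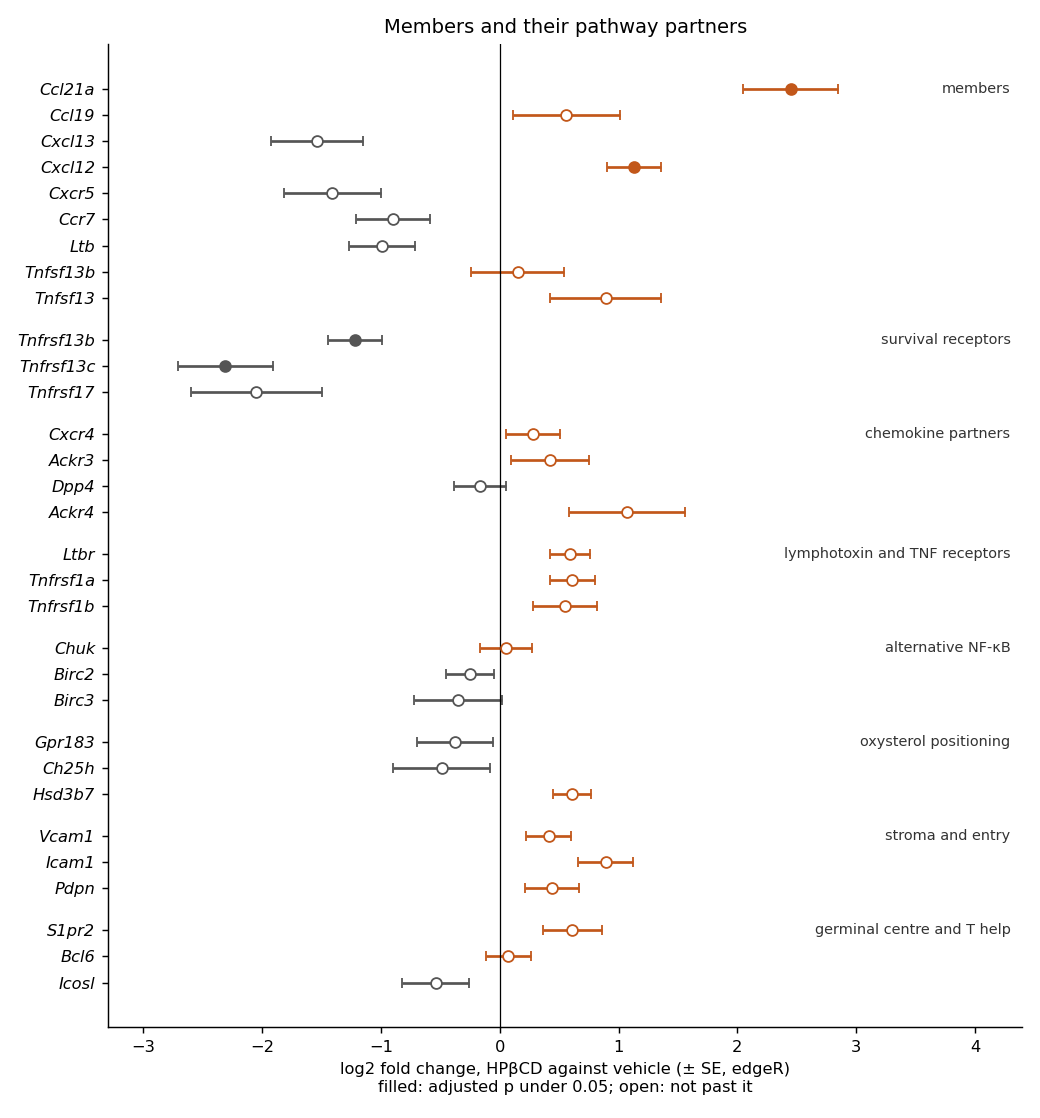
edgeR log2 fold change of HPβCD against vehicle, with an SE derived from the F statistic, for the 9 tested members and for named genes of 7 pathway lists. Filled points have an adjusted p under 0.05 and open points do not. Ccl21a (2.45) and Cxcl12 (1.13) are the filled points to the right of 0, and Tnfrsf13c (-2.31) and Tnfrsf13b (-1.22) those to the left.

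The sequence upstream of 4 members is shown because lymphotoxin signalling to these chemokines runs through NF-κB: the 2 that rose, *Cxcl13* as the strongest with the opposite sign, and *Ltb*. RefSeq promoters (GRCm38.p6) were given for 8 of the 10 members, without *Cxcr5* and *Ccr7*. The 250 bases before the RefSeq start were searched on both strands for the NF-κB consensus, for TATAAA and for GGGCGG, the GC box. They are printed 5′ to 3′ on the strand of the gene, with matches in capitals, up to the RefSeq start or the annotated gene start, whichever comes first. Offsets count from the RefSeq start. In *Ltb* and *Ccl21a* this start lies inside the annotated gene, so only 182 and 248 bases are printed and the offsets do not count from their end. The regions are chr4:42773994-42774241 (minus strand) for *Ccl21a*, chr6:117168285-117168534 (plus strand) for *Cxcl12*, chr5:95956689-95956938 (plus strand) for *Cxcl13* and chr17:35194257-35194438 (plus strand) for *Ltb*.
Ccl21a: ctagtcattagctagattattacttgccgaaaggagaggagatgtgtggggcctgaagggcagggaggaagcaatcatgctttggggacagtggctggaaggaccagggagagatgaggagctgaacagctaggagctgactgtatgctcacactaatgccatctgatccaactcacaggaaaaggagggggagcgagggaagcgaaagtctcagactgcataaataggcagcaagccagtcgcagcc
Cxcl12: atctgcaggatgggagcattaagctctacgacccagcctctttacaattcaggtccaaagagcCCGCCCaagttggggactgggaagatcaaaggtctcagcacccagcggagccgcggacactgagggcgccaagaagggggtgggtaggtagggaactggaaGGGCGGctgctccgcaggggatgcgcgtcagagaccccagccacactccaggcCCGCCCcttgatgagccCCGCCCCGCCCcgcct
Cxcl13: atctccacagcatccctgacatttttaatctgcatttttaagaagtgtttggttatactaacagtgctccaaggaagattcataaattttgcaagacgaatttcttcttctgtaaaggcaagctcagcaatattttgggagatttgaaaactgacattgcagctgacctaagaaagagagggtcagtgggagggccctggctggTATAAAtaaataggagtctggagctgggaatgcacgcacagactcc
Ltb: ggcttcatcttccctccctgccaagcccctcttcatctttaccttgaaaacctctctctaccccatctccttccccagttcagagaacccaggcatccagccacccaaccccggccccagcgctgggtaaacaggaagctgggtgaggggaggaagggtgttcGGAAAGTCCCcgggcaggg
The NF-κB consensus occurred in the *Ltb* window alone among the 8 members, from -87 to -78 on the minus strand, and in 3.9% of 32851 RefSeq promoter windows. TATAAA occurred at -46 in *Cxcl13* and at -167 in *Lta*, and in 12.4% of all windows. *Cxcl12* held 5 GC boxes, of which the last 2 overlap by 1 base, and *Tnfsf13* held 1, against 32.7% of all windows with any. *Ccl21a* held none of the 3 motifs in this window. A match is only a run of letters, and its absence says nothing about the binding of a factor.

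Cell type markers differed along with some members. Calls among them are given by both tools, where edgeR called 1.17% of all genes higher and 0.774% lower. For DESeq2 these shares were 6.1% and 11.4%. Summed B lymphocyte markers (8 genes) were at 169 to 587 CPM in vehicle and 58.1 to 160 CPM in treated infarcts, without overlap. Of the 8, 3 fell by edgeR and 7 by DESeq2. Summed plasma cell markers (7 genes) were at 1157 to 2614 CPM and 247 to 481 CPM. *Jchain*, the 1 that fell by edgeR, gave 858 to 2184 CPM of the vehicle and 41.0 to 229 CPM of the treated sums. By DESeq2, 4 of the 7 fell. All 7 had negative log2 fold changes, smallest in *Prdm1* (-0.17) and *Xbp1* (-0.28), whose groups overlapped. T lymphocyte markers (8 genes) overlapped at 98.8 to 159.9 CPM and 75.9 to 208 CPM, with no edgeR or DESeq2 call. At an unadjusted edgeR p under 0.05 were 0 of these 8, against 27.8% of all tested genes. Dendritic cell markers (7 genes) overlapped at 97.3 to 165 CPM and 74.2 to 141 CPM, with no edgeR or DESeq2 call. *Fscn1* gave 50.8 to 142 CPM of the vehicle and 34.0 to 81.7 CPM of the treated sums. It alone had a negative log2 fold change (-0.62, and 0.02 without vehicle animals 1 and 3), while those of the other 6 were positive. Fibroblast markers (6 genes) were at 2348 to 6025 CPM in vehicle and 8657 to 9270 CPM in treated infarcts, without overlap. Of the 6, 2 rose by edgeR, *Col1a1* and *Col1a2*, and 3 by DESeq2, while *Dcn* and *Lum* had overlapping groups. Without vehicle animals 1 and 3 the edgeR log2 fold changes were uneven. They were 1.36 (*Col1a1*), 1.21 (*Col1a2*), 0.55 (*Pdgfra*), 0.50 (*Col3a1*), 0.40 (*Dcn*) and -0.06 (*Lum*). Lymphatic endothelium markers (6 genes) were at 141 to 208 CPM and 205 to 267 CPM, and 1 rose by edgeR and 2 by DESeq2. All 6 mural cell markers had positive log2 fold changes, and 1 rose by edgeR and 1 by DESeq2. Their sums of 376 to 571 CPM and 553 to 864 CPM overlapped. All 6 oligodendrocyte markers had negative log2 fold changes, with sums of 1305 to 4278 CPM and 153 to 1710 CPM. EdgeR called none of them and DESeq2 called 1. Macrophage and microglia, neutrophil and blood endothelium markers had overlapping sums and no edgeR call. No marker of any of these lists was at 0 in all libraries. Of 6 macrophage and microglia markers 3 were higher and 3 lower, and DESeq2 called *Cx3cr1* and *P2ry12* lower (adjusted p = 0.009 and 0.00712). Of 6 blood endothelium markers 5 were higher and 1 lower, and DESeq2 called *Cdh5* higher and *Slco1a4* lower (adjusted p = 0.0217 and 0.0457). By edgeR no astrocyte or neuron marker was called, while DESeq2 called 4 astrocyte and 5 neuron markers lower. The neuron sums of vehicle animals 1 and 3 stood apart, as given above.

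**Figure D3:**
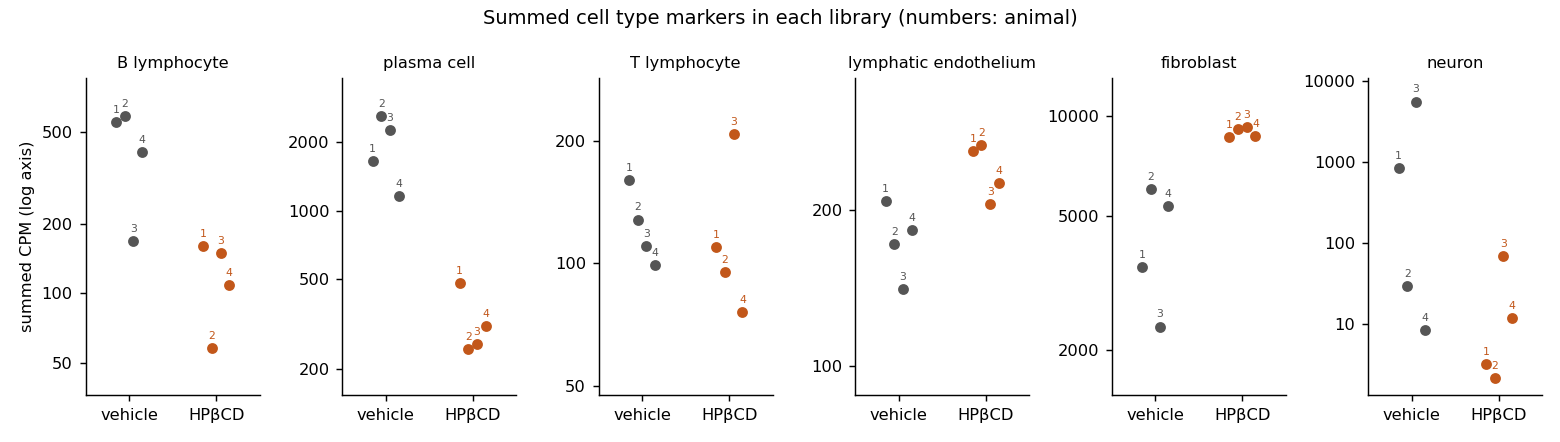
Summed CPM of 6 marker lists in each library, on log axes with their own ranges; vehicle is grey, HPβCD orange, and numbers mark the animal. B lymphocyte and plasma cell sums are lower in all 4 treated infarcts and fibroblast sums higher, T lymphocyte sums overlap, and the neuron sums of vehicle animals 1 and 3 stand apart (831 and 5554 CPM).

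Ratios within a library, which do not depend on scaling, set the members against these markers and against each other. The 8 ratios were compared by an exact two-sided permutation test over the 70 assignments of the animals, whose smallest possible p is 0.0286. *Ccl21a* against lymphatic endothelium markers was higher in every treated infarct, with log2 ratios of -6.06, -5.50, -6.33 and -6.37 in vehicle and -3.46, -4.47, -3.61 and -4.98 in treated animals 1 to 4. The difference was 1.94 on the log2 scale (exact p = 0.0286, the smallest possible, and 0.228 after adjustment over the 8 ratios). *Pdpn*, which stromal cells also express, gave 69.4 to 171 CPM of the marker sum of 141 to 267 CPM. Of the other markers, *Flt4* and *Mmrn1* were higher in every treated infarct while *Prox1* and *Reln* had overlapping groups and lower means. Without vehicle animals 1 and 3 the log2 fold change of *Reln* reversed from -0.39 to 1.16 (edgeR adjusted p = 0.0917), and that of *Prox1* was -0.22. With *Pdpn* left out of the sum, the difference of the *Ccl21a* ratio was 1.88. Against *Flt4* and *Mmrn1* alone it was 0.92, both chosen after seeing the data (exact p = 0.0286 each). *Ccl21a* against fibroblast markers differed by 1.24 (exact p = 0.0571, adjusted 0.228), with HPβCD animal 4 inside the vehicle range. *Cxcl12* against fibroblast markers averaged -2.27 ± 0.30 in vehicle and -2.25 ± 0.21 in treated infarcts (SD, n = 4, exact p = 0.943), so that *Cxcl12* and the fibroblast sum differed between groups by nearly equal factors.

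On the lymphocyte side, *Cxcr5* against B lymphocyte markers averaged -5.33 ± 0.33 in vehicle and -5.02 ± 0.23 in treated infarcts (log2 ratio, SD, n = 4, exact p = 0.171). *Cxcl13* against its receptor *Cxcr5* averaged 4.19 ± 0.44 and 4.22 ± 0.79 (exact p = 0.886), with groups that overlapped. *Ltb* against B and T lymphocyte markers together averaged -7.39 ± 0.47 and -7.25 ± 0.24 (exact p = 0.571). *Ccr7* against T lymphocyte markers differed by -0.75, from -3.89 ± 0.59 to -4.64 ± 0.30 (exact p = 0.0857, adjusted 0.229). *Tnfsf13b* against *Tnfsf13* differed by -1.19, from 1.79 ± 1.09 to 0.60 ± 0.59 (exact p = 0.143, adjusted 0.274), and by -0.29 without vehicle animals 1 and 3. Without these animals the difference of *Ccr7* against T lymphocyte markers was -1.22. No ratio passed after adjustment, and a p above the threshold does not show that the groups are alike.

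**Figure D4:**
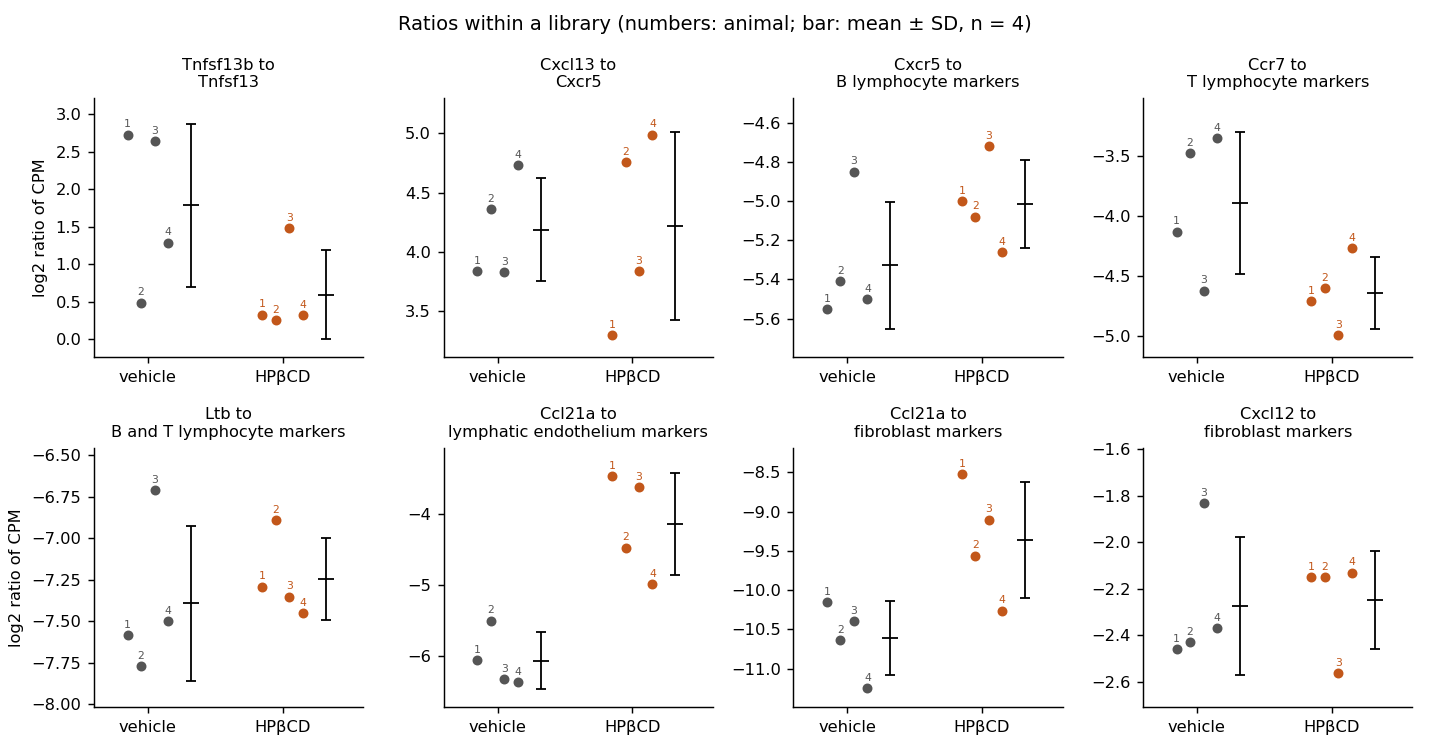
log2 ratios of CPM within each library for 8 pairs, with vehicle in grey and HPβCD in orange; numbers mark the animal and bars the mean ± SD of 4 animals. Only the ratio of Ccl21a to lymphatic endothelium markers separates the groups completely (difference 1.94), and the ratio of Cxcl12 to fibroblast markers has nearly the same mean in both (-2.27 and -2.25).

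Levels of different genes were compared per kilobase of annotated exon. In vehicle infarcts *Cxcl13* (169 ± 76.0 CPM per kilobase) and *Cxcl12* (106 ± 30.3) led, with overlapping ranges and no overlap with the genes below them. Next came *Ccr7* (4.4 ± 1.5), *Ccl21a* (3.12 ± 1.05), *Cxcr5* (3.04 ± 1.04) and *Ltb* (2.06 ± 0.321), each overlapping with the next, and none of the *Ltb* values reached down to those of *Ccl19*. *Ccl19*, *Tnfsf13*, *Lta* and *Tnfsf13b* followed at 1.06 to 0.313 CPM per kilobase, again with overlapping neighbours. In treated infarcts the order began with *Cxcl12* (231 ± 26.6), *Cxcl13* (58.1 ± 19.4) and *Ccl21a* (17.1 ± 8.06), whose ranges did not overlap with each other or with *Ccr7* (2.35 ± 0.642). Below *Ccr7*, the genes from *Ccl19* (1.56 ± 0.859) over *Cxcr5* and *Ltb* to *Tnfsf13* (0.873 ± 0.089) overlapped with their neighbours. *Tnfsf13b* (0.345 ± 0.193) and *Lta* (0.188 ± 0.0949) came last (all SD, n = 4). The order was not tested, and the places of *Ccl21a*, *Ccl19* and *Tnfsf13* are not firm. Sequence they share with other genes lowers their counts but is included in the exon length. That length takes in every annotated exon base, 6868 for *Tnfsf13b* and 1637 for *Tnfsf13*, whichever transcripts were expressed. Without this division, *Tnfsf13b* had the higher vehicle mean (2.15 against 0.74 CPM), so its low place is not firm either.

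**Figure D5:**
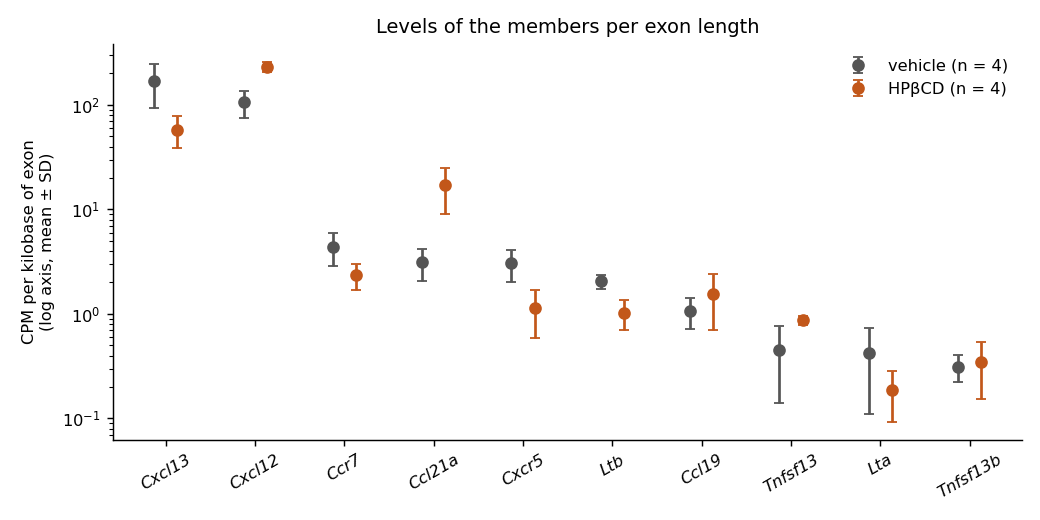
Mean CPM per kilobase of exon of the 10 members on a log axis, with error bars of 1 SD over 4 animals, vehicle in grey and HPβCD in orange, ordered by the vehicle mean. Cxcl13 (169) leads in vehicle and Cxcl12 (231) in treated infarcts, and Ccl21a goes from 3.12 to 17.1.

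The genes whose log2 CPM followed each member most closely over the 8 libraries were listed as a description, out of 13130 genes. The 8 points share the 2 groups and the varying share of brain tissue, so any gene that differs between groups can rank high. *Ccl21a* was followed by *Lta4h* (Pearson r = 0.986, Spearman rho = 1.0), *Bgn* (0.986, 0.976) and *Cpxm2* (0.983, 0.976). *Cxcl12* was followed by *Adamts15* (0.994, 0.952), *Irs1* (0.993, 0.976) and *Grb10* (0.993, 0.976). *Cxcr5* was followed by *Ly6d* (0.991, 0.976) and *Crisp3* (0.982, 0.976). *Ltb* was followed by *Klhl14* (0.984, 0.976), *Cd79b* (0.968, 0.976) and *Fcer2a* (0.960, 0.976). For *Cxcl13* these were *Ap1s3*, *Il18r1* and *Cd55* (r 0.971 to 0.977), and for *Ccr7* they were *Traf3ip3*, *Col6a5* and *Cpm* (r 0.977 to 0.986). *Ccl19* was followed by *Cdc42ep1*, *Naaa* and *Ddx39b* (r 0.951 to 0.960), *Tnfsf13* by *Snx9*, *Sytl4* and *Rbpms* (r 0.984 to 0.989) and *Tnfsf13b* by *Ccnb2*, *P2ry13* and *Cdk1* (r 0.943 to 0.945).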

How the data were processed

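Infarct RNA of 8 mice (4 vehicle, 4 HPβCD) was sequenced by the authors from stranded polyadenylated libraries as paired reads of 75 bases. According to the methods and the submitters' processing notes, reads were demultiplexed with bcl2fastq 2.19, trimmed with Trimmomatic 0.32, aligned to GRCm38 with STAR 2.5.2b and counted per gene with htseq-count. Its version, strand option and annotation are not given in the sources used here. The tables deposited by the authors hold raw, unnormalized read counts for each gene. Lines for unassigned reads (26.6% to 36.6% of a library) were left out. Symbols were matched for 45143 of 46078 identifiers.

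Counts were tested with edgeR 4.0.16 in R 4.3.3 (robust quasi-likelihood F test, TMM, filterByExpr, Benjamini-Hochberg over 14736 genes, threshold 0.05), without covariates. The SE of an edgeR log2 fold change was derived from its test, as the absolute log2 fold change divided by the square root of F. log2 CPM used a prior count of 2. DESeq2 1.42.0 and limma 3.58.1 (voom with sample weights) were alternatives, beside other scalings and filters, the animal number as a block and leaving out animals. No 2 libraries agreed within sampling noise (lowest chi-square per degree of freedom 20.3), so none was counted as a duplicate. The labels name no batch.

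The members and all gene lists were chosen with earlier results of these data known, so no p is adjusted over a list alone. The text names all members, the called genes and the 3 best expressed of each pathway list, some fixed receptors, and the 3 genes most correlated with a member of at least 1 CPM. A few genes that this rule covers are not reported here.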

Additional observations from a re-analysis of the deposited data

Results flagged for a closer look

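In groups of 4 animals, the highest or lowest animal was compared with the rest by the ratio of its gap to the range, which exceeded the 95% critical value in 4 of 34 groups searched. Chance alone flags about 1 in 20 groups, or 1.7 here. HPβCD animal 3 had the highest *Ccr7* level of the treated infarcts (log2 CPM 2.73, against 2.01 to 2.10 in the others). The same animal had the highest log2 ratio of *Tnfsf13b* to *Tnfsf13* (1.48, against 0.25 to 0.33) and the lowest log2 ratio of *Cxcl12* to fibroblast markers (-2.56, against -2.15 to -2.13). Vehicle animal 3 had the highest log2 ratio of *Cxcl12* to fibroblast markers among vehicle infarcts (-1.83, against -2.46 to -2.37). HPβCD animal 3 also held the most summed T lymphocyte markers (208 CPM), and vehicle animal 3 the most neuron markers (5554 CPM). The part of these in the flagged values was not tested.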

How the results depend on the processing

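The number of called genes depended strongly on the test. Against 287 with edgeR, it was 2911 with DESeq2, 3232 with limma-voom, 98 without the robust option, 11 with library totals alone, 0 to 629 without a single animal, and 1240 with DESeq2 without vehicle animals 1 and 3 (an alternative chosen after seeing the data). The count of 0 arose without vehicle animal 1 or 4 or HPβCD animal 2 or 3, where edgeR still gave 2922 to 4216 genes at an unadjusted p under 0.05. DESeq2 was not run for these. Of the members, 2 were called by edgeR, 5 by DESeq2 with all animals, 5 by DESeq2 without vehicle animals 1 and 3 (*Ltb* lost and *Ccr7* gained), and 6 by limma-voom. It was 1 without the robust option, with RLE scaling, without the filter on low counts (*Ccl21a* in each) and without vehicle animals 1 and 3 (*Cxcl13*), 0 with library totals alone, and 0 to 4 without a single animal. The directions of *Ccl21a* (log2 fold change 2.14 to 2.68), *Cxcl12* (0.82 to 1.28), *Cxcl13* (-2.04 to -1.30), *Cxcr5* (-1.81 to -1.16), *Ccr7* (-1.19 to -0.74) and *Ltb* (-1.19 to -0.83) were kept under every alternative run. *Tnfsf13b* reversed to -0.21 with limma-voom and ranged from -0.32 to 0.36 without a single animal. Ratios near 0 changed sign: *Cxcl13* to *Cxcr5* lay between -0.23 and 0.34 without a single animal and at -0.32 without vehicle animals 1 and 3, *Cxcl12* to fibroblast markers between -0.04 and 0.17, and *Ltb* to lymphocyte markers at -0.04 with means of log2 CPM. *Ccl21a* to lymphatic endothelium markers stayed at 1.71 to 2.22 without a single animal and at 1.81 without vehicle animals 1 and 3, where the smallest possible exact p is 0.0571 and 0.133. The cause of these shifts was not tested.

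With the animal number as a replicate block, edgeR called 9 genes, all lower, and 0 members (3478 genes at an unadjusted p under 0.05), with *Ccl21a* at an adjusted p of 0.0777, *Cxcl12* at 0.0843, *Tnfrsf13c* at 0.09 and *Tnfrsf13b* at 0.0969. Deviations of same-numbered animals correlated by -0.257, 0.244, 0.329 and 0.097, and 2 of 4 numbers matched their own best. The numbers are not known to pair animals, and so few correlations cannot decide whether they do.

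Members under 3 CPM rest on few counts, and shared sequence lowers the counts of *Ccl21a*, *Ccl19* and *Tnfsf13*.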
